A study of Mus musculus with 22 samples.

Results

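The genes described here are 9 genes of the Nodal pathway and of epiblast priming in mouse embryonic stem cells (ESCs), out of 55487 genes in the deposited tables. They were chosen by name from their known roles, with earlier results of these data known. Nodal, Lefty1, Lefty2, Tdgf1, Cer1 and Smad7 stand for the pathway, and Fgf5, Otx2 and Pou3f1 for priming. Their RNA was measured by poly(A) RNA-seq in 20 libraries, 2 for each of 10 constructs. Every cell carried a Dux-/- background and grew in 2iLIF, a medium that holds ESCs in the naive state, and every culture received doxycycline at 0.25 ug/mL for 12 h after 24 h of recovery, so the controls share the deletion, the medium and the drug. The construct was mCherry alone (the control), mCherry fused to full-length mouse DUX (FL), or mCherry fused to one of 8 DUX derivatives named C3+14, C1C3a, C1C3b, C1C3c, C1+14, C12345delt14, deltC12345+14 and deltC12345delt14. The labels do not spell out what the parts of these names stand for, and the derivative C3delt14 was not analysed here. No label says that the 2 libraries of a construct came from separate cultures, so the p-values below measure the spread between these libraries, which may be technical. The labels also do not say whether a construct was measured in 1 clone or several.

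Nodal is a secreted ligand of the TGF-beta superfamily that signals through activin receptors with the co-receptor Cripto (the product of Tdgf1) and activates SMAD2 and SMAD3, which act with SMAD4 and FOXH1 on target genes. Lefty1, Lefty2 and Cer1 encode secreted Nodal antagonists, Smad7 encodes an inhibitory SMAD, and Lefty1, Lefty2 and Smad7 are themselves induced by the pathway, which makes them feedback readouts. In ESCs the pathway is active at a low level. On leaving the naive state towards the primed epiblast, cells turn on Otx2, Pou3f1 (also called Oct6) and Fgf5, which are common markers of that transition. DUX is a double homeodomain transcription factor of the 2-cell embryo that turns on 2-cell genes when expressed in ESCs.

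Lefty1 and Lefty2 are adjacent, near-identical genes, which bears on how far their reads can be told apart. Both lie on the plus strand of chromosome 1 in GRCm38, Lefty2 at 180893108 to 180899103 and Lefty1 at 180935022 to 180938400. Their coding sequences are each 1104 bases long, 91.8% identical base for base in the GENCODE M21 transcripts, and share an identical run of 140 bases. Of the 50-base words of Lefty1 transcripts, 17.9% also occur in Lefty2, and 12.0% of those of Lefty2 occur in Lefty1. The stretch of 60 coding bases where they differ most, coding positions 34 to 93 in exon 1 of each gene, is shown because a read from it can be assigned to 1 gene. Capitals mark the 18 bases that differ, at chr1:180935143-180935202 for Lefty1 and chr1:180893217-180893276 for Lefty2.
Lefty1: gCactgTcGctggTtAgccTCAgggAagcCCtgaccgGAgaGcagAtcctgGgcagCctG
Lefty2: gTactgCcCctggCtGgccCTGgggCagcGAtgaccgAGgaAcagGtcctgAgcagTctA

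The other members lie elsewhere. Nodal is at chr10:61417972-61425338 on the plus strand, Tdgf1 at chr9:110939603-110946158 on the minus strand, Cer1 at chr4:82881751-82885148 on the minus strand and Smad7 at chr18:75367529-75395935 on the plus strand. Fgf5 is at chr5:98254184-98277030 and Pou3f1 at chr4:124656807-124660655, both on the plus strand, and Otx2 is at chr14:48657677-48673819 on the minus strand. Tdgf1 shares 8.86% of its 50-base words with other genes, mainly its processed copy Tdgf1-ps1, whose reads came to between 7.84% and 10.3% of the Tdgf1 reads in each library. Otx2 overlaps Gm49154 on its own strand, with which it shares 120 of its 50-base words, and Otx2os1 on the opposite strand, and Pou3f1 overlaps the antisense gene Gm2164, so their counts are read with that limit. Nodal and Smad7 share 0% of their words with any other gene.

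The deposited values are read counts divided by 1 size factor per library, called normalised reads below, in 2 tables scaled separately. The chimera table holds mCherry, the 5 derivatives from C3+14 to C1+14 in the order above, and FL (14 libraries). The deletion table holds the same FL libraries with C12345delt14, deltC12345+14 and deltC12345delt14 (8 libraries), and has no mCherry control. Libraries held 21059953 to 40448890 reads. The libraries fell into 2 kinds by the share of reads in 1725 genes whose sequence is repeated across many genes: 1.67% to 2.59% in 14 libraries and 0.303% to 0.431% in the other 6. Those 6 are both mCherry libraries, both C3+14 libraries, replicate 2 of deltC12345+14 and replicate 1 of deltC12345delt14. In every comparison with mCherry other than that of C3+14, the kind of library and the construct therefore cannot be told apart.

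Checked against their markers, the mCherry libraries had summed levels of 58374 to 58525 normalised reads over 5 ESC genes (Pou5f1, Sox2, Nanog, Esrrb and Zfp42), and 0 reads of 5 genes of the 2-cell state (Zscan4c, Zscan4d, Zfp352, Tcstv1 and Tcstv3). From the lowest construct up, the summed 2-cell genes stood at 3.72 to 8.04 normalised reads in C1+14, 783 to 865 in C1C3c and 11087 to 17498 in C1C3b. C1C3a reached 285379 to 423752, C3+14 681895 to 746685 and FL 709715 to 1333342. Summed ESC genes were lowest in C1C3b, at 17736 to 20055. Since these are bulk samples, fewer cells of a type and less RNA per cell cannot be told apart.

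The comparison with mCherry asks what each construct does to these genes. A member is called changed when limma, fitted over all genes of the table on log2(normalised reads + 1), gave an adjusted p below 0.05 and a log2 difference of at least 1. With FL, 5 of the 9 members were called, all lower (Nodal, Lefty1, Lefty2, Smad7 and Otx2), against a background of 44.2% of all genes tested (24.5% higher and 19.6% lower). With C3+14, 4 were lower and 1 higher (background 47.3%, made up of 29.6% higher and 17.7% lower). With C1C3a, 4 were lower and 1 higher (background 46.4%, with 27.4% higher and 19% lower), and with C1C3b 3 were lower and 3 higher (44.7%, with 27.6% and 17.1%). With C1C3c, 2 members were called, both higher (background 28.8%, with 18.3% higher and 10.5% lower). With C1+14 also 2 were called, both higher (background 18.3%, with 12.4% higher and 5.95% lower). The median log2 difference over the members was 0.32 in C1C3c and 0.02 in C1+14, -0.35 in C1C3b, -0.78 in C3+14, -0.86 in C1C3a (-1.01 with a gene at the detection floor entered at its read ratio) and -1.92 in FL, and the same median over all genes tested lay between 0 and 0.23. The shares called were near the background in several comparisons, so the counts alone do not set the members apart. Cer1 and Fgf5 passed the filter on low values through only 4 of the 14 libraries each. For Cer1 these belong to C3+14, C1C3b and C1C3c, the constructs in which it was called, and for Fgf5 they include both C1C3b libraries, so those calls lean on the filter. The F test over all 7 groups called 9 of 9 members, against 89.9% of all genes.

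The share of calls over all genes that were higher depended on scaling. Of the genes called, 59.0% were higher for C1C3a, 55.5% for FL, 61.7% for C1C3b and 62.6% for C3+14. After quantile normalization these shares were 41.0%, 41.2%, 47.8% and 42.4%. For C1C3c and C1+14 more calls were higher both before (63.6% and 67.5%) and after it (53.6% and 58.4%). Quantile normalization moved the median of all genes by -0.48 to 0.32 on the log2 scale over all comparisons, and no called member changed direction under it.

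**Figure D1:**
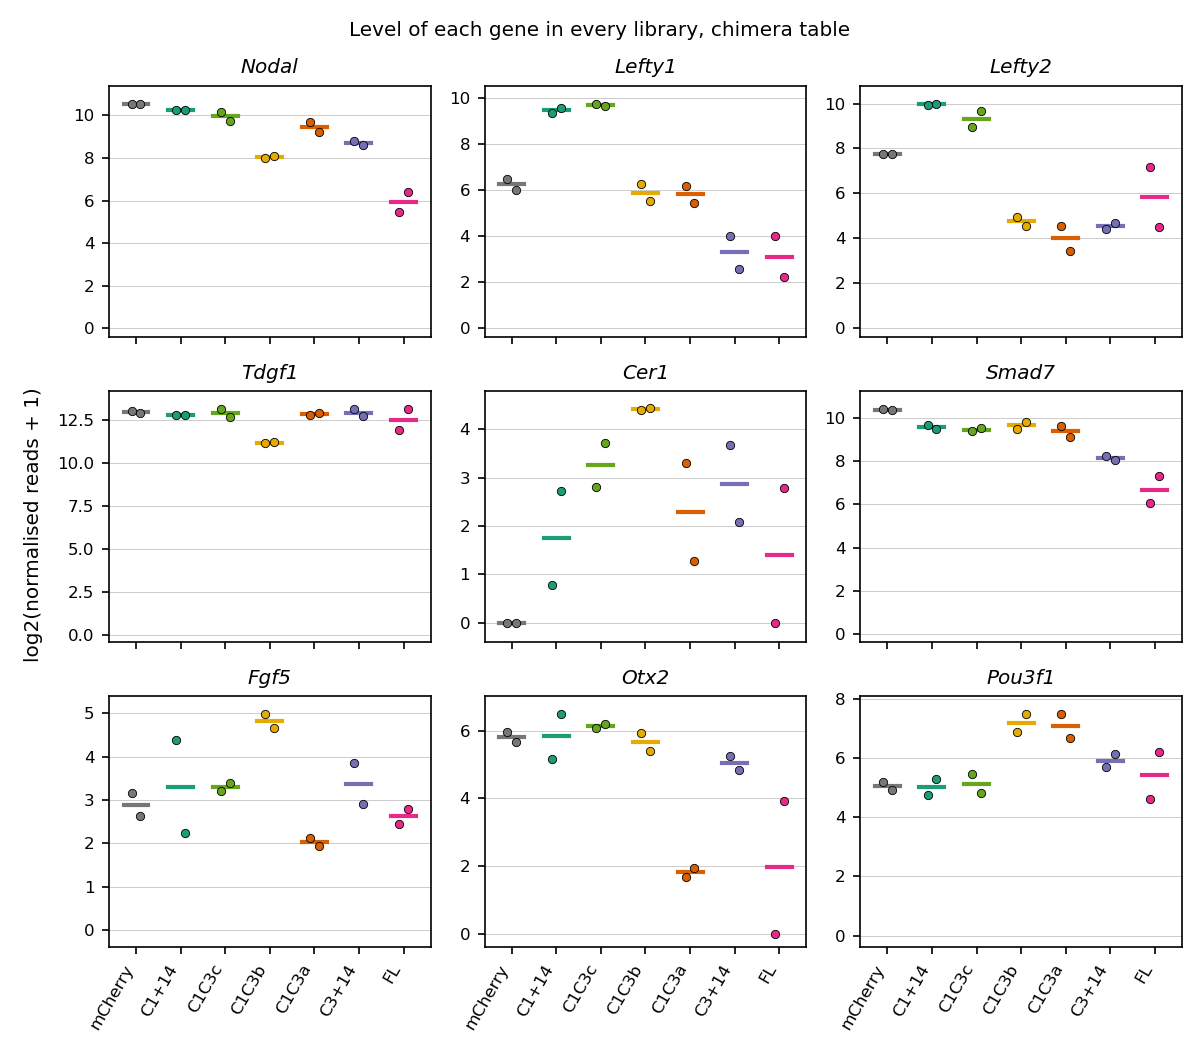
Level of each of the 9 genes in the 14 libraries of the chimera table, as log2(normalised reads + 1) on the vertical axis with the construct on the horizontal axis. Points are libraries and bars are group means (n = 2). Nodal was highest in mCherry and lowest in FL, whereas Lefty1 was highest in C1C3c and C1+14.

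Nodal, the ligand, was graded across the constructs. It measured 1483 and 1462 normalised reads in the mCherry libraries, 1237 and 1232 in C1+14, 1159 and 842 in C1C3c, 821 and 589 in C1C3a, 442 and 392 in C3+14, 256 and 275 in C1C3b, and 42.7 and 83.3 in FL. No 2 neighbours in this order overlapped, though the lower C1C3c library, at 842, lay close to the higher C1C3a library, at 821. By limma, 4 of the 6 stood below mCherry. In FL the gene fell from 1472 ± 14.7 to 63.0 ± 28.7 (SD, n = 2 each), a log2 difference of -4.60 (SE 0.26, adjusted p = 7.58e-09). Nodal fell less in C1C3b (log2 difference -2.47, adjusted p = 4.01e-06), C3+14 (-1.82, adjusted p = 4.78e-05) and C1C3a (-1.08, adjusted p = 0.0028). Without C1C3a replicate 2 the difference in C1C3a was -0.84 and no longer called. The C3+14 libraries are of the same kind as mCherry by their repeated-gene share. Nodal was not called in C1C3c or C1+14. No exact test over 2 libraries against 2 can reach a p below 0.333, so these calls rest on the spread pooled over genes and groups. That spread was not alike in all groups. The chi-square per gene between the reads of the 2 libraries was 89.1 in FL, 6.67 in C3+14 and 3.55 in mCherry. In the other groups it was 13.2 to 42.3, so the pooled spread can understate that of FL.

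Lefty1, the first of the feedback antagonists, went both ways. It measured 87.8 and 63.5 normalised reads in mCherry, 14.7 and 3.57 in FL, and 15.1 and 4.86 in C3+14. It measured 70.8 and 42.5 in C1C3a and 75.4 and 45.1 in C1C3b, which overlap the control. In C1C3c it stood at 860 and 799, and in C1+14 at 657 and 763, above every other library of the table. Lefty1 fell in FL (log2 difference -3.16, SE 0.56, adjusted p = 0.000293) and in C3+14 (-2.96, adjusted p = 0.000459), where its libraries held 3 to 10 reads each. With 1 library left out, the Lefty1 difference was -4.05 or -2.27 in FL and -3.69 or -2.23 in C3+14, called each time. It rose by 3.46 in C1C3c (SE 0.56, adjusted p = 0.000295), from 75.6 ± 17.2 to 829 ± 43.4, and by 3.23 in C1+14 (adjusted p = 0.000948), to 710 ± 75.1.

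Lefty2, its neighbour, was low in more constructs. It measured 214 in both mCherry libraries, 20.1 and 24.3 in C3+14, 22.1 and 9.91 in C1C3a, and 29.8 and 22.5 in C1C3b. The FL libraries were far apart, at 143 and 21.4. Values in C1C3c were 503 and 818, and in C1+14 986 and 1014. Lefty2 fell in C1C3a (log2 difference -3.76, adjusted p = 0.000177), C3+14 (-3.22, adjusted p = 0.000605) and C1C3b (-3.00, adjusted p = 0.00113). It rose by 2.22 in C1+14 (SE 0.63, adjusted p = 0.0168), to 1000 ± 19.7, a call that was lost when any 1 of the 4 libraries was left out (adjusted p = 0.0611 to 0.0803). Its fall in FL (log2 difference -1.92, adjusted p = 0.0179) dropped to -0.58 and was lost without FL replicate 2 (adjusted p = 0.265), stood at -3.26 without FL replicate 1, and was lost without either mCherry library (adjusted p = 0.0666 and 0.0665). It was also lost with only the 2 groups compared (adjusted p = 0.19) and with DESeq2 (adjusted p = 0.0925). In C1C3c, Lefty2 was not called.

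The constructs therefore differed in which Lefty gene held most reads. Lefty1 made up 26.0% ± 4.38 of the reads of both genes in mCherry (SD, n = 2), 78.6% ± 3.46 in C1C3a and 69.2% ± 3.54 in C1C3b. It made up 56.3% ± 9.70 in C1C3c, 41.5% ± 2.09 in C1+14, 29.8% ± 18.5 in C3+14 and 11.8% ± 3.49 in FL. These shares are a description, since reads in the stretches that the genes share could have been counted for either. The sum of both genes does not depend on that split. Its mean was 289 normalised reads in mCherry, 1490 in C1C3c and 1710 in C1+14, and 91.3 or less in FL, C3+14, C1C3a and C1C3b. The FL mean comes from libraries far apart, at 158 and 25.0.

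**Figure D2:**
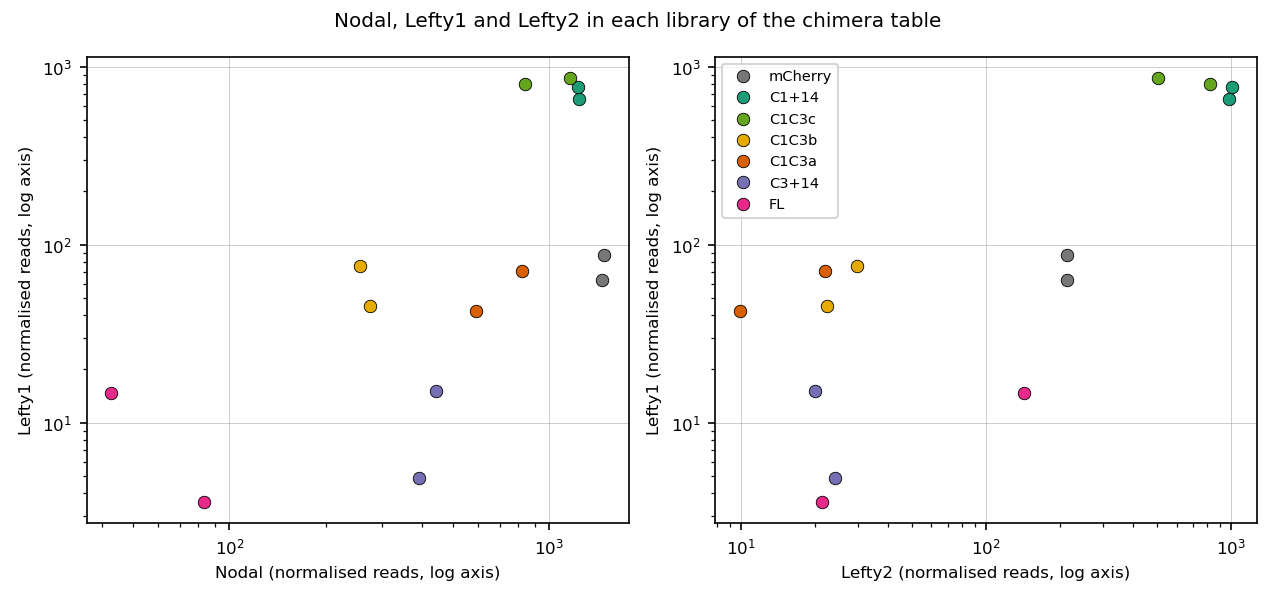
Level of Lefty1 (vertical axis) against Nodal (left) and against Lefty2 (right), in normalised reads on log axes, with 1 point per library of the chimera table coloured by construct. The C1C3c and C1+14 libraries stand at 657 to 860 for Lefty1, above mCherry, and Nodal was not called against mCherry in either construct. The C1C3a and C1C3b libraries stand near mCherry for Lefty1 and far below it for Lefty2.

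Tdgf1, the co-receptor, was the most abundant member per length. In mCherry it reached 3096 normalised reads per kilobase of transcript, against 703 for Nodal, 299.8 for Smad7, 81.8 for Lefty2 and 43.0 for Lefty1. Otx2 stood at 13.2 per kilobase, Pou3f1 at 8.42 and Fgf5 at 2.61, and Cer1 had no reads there. Tdgf1 measured 8309 and 7925 normalised reads in mCherry, 2328 and 2403 in C1C3b, and between 6530 and 8985 in C3+14, C1C3a, C1C3c and C1+14. FL stood at 3963 and 9046, on both sides of the control. Among the 6 constructs tested against mCherry, Tdgf1 was called in C1C3b, where it fell from 8117 ± 272 to 2365 ± 53.4 (log2 difference -1.78, SE 0.28, adjusted p = 0.000105). Tested directly, C1C3b was also below C1C3a (-1.65, adjusted p = 0.000251) and below C1+14 (-1.59, adjusted p = 0.000485).

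Cer1, the other antagonist, was at 0 reads in both mCherry libraries. It measured 20.2 and 20.7 normalised reads in C1C3b (23 and 22 reads). The other constructs measured 6.03 and 12.2 in C1C3c, 11.7 and 3.24 in C3+14, 8.86 and 1.42 in C1C3a, 0.731 and 5.58 in C1+14, and 0 and 5.95 in FL. Since the gene passed the filter only through C1C3b, C1C3c and C3+14, these groups had to stand above a control at 0. Set against a floor of 3 reads per mCherry library, Cer1 was at least 8.97-fold higher in C1C3b, at least 3.998-fold higher in C1C3c and at least 3.29-fold higher in C3+14. The limma fit, in which the control stands at 0 and not at the floor, gave adjusted p = 0.00161, 0.0154 and 0.0203 in that order. The C1C3c and C3+14 calls were each lost without any 1 of 3 libraries, at adjusted p = 0.0676 to 0.105 and 0.0728 to 0.157, and that of C3+14 also with a pseudocount of 8 (adjusted p = 0.0522) and after quantile normalization (0.195). Cer1 is also a gene of the visceral endoderm. Of 9 tested markers of primitive and visceral endoderm, 7 rose in C1C3b (27.6% of all genes did), 6 rose and 1 fell in C3+14 (all genes 29.6% and 17.7%) and 5 rose and 1 fell in C1C3a (27.4% and 19%). In C1C3c 4 rose (18.3%), in C1+14 3 rose (12.4%), and in FL 2 rose and 1 fell (24.5% and 19.6%). Their summed level was 377 to 381 normalised reads in mCherry, where Ttr had 0 reads, against 239 to 317 in FL, where Sox7 and Ttr had 0 reads. It was 556 to 686 in C1+14, 601 to 688 in C1C3c, 701 to 1129 in C1C3a, 1367 to 1478 in C3+14 and 1557 to 1579 in C1C3b. Their part in the Cer1 values was not tested.

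Smad7, the inhibitory SMAD, was highest in the control. Smad7 measured 1379 and 1331 normalised reads in mCherry. Values were 731 and 924 in C1C3b, 835 and 732 in C1+14, 687 and 740 in C1C3c and 800 and 566 in C1C3a. They were lower still in C3+14, at 303 and 266, and in FL, at 66.3 and 157. No library of any construct reached the control, and C1+14, C1C3c, C1C3b and C1C3a overlapped one another. Against mCherry, Smad7 fell in FL from 1355 ± 33.7 to 112 ± 64.2 (log2 difference -3.72, SE 0.30, adjusted p = 2.56e-07) and in C3+14 (-2.25, adjusted p = 2.53e-05). Without FL replicate 1 the Smad7 difference in FL was -3.10, and without FL replicate 2 it was -4.33. The difference of -1.01 in C1C3a (adjusted p = 0.0103) lies at the limit of 1 for a call. It was not called without C1C3a replicate 2 (adjusted p = 0.103), without mCherry replicate 1 (adjusted p = 0.0508) or with DESeq2 (log2 difference -0.98).

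**Figure D3:**
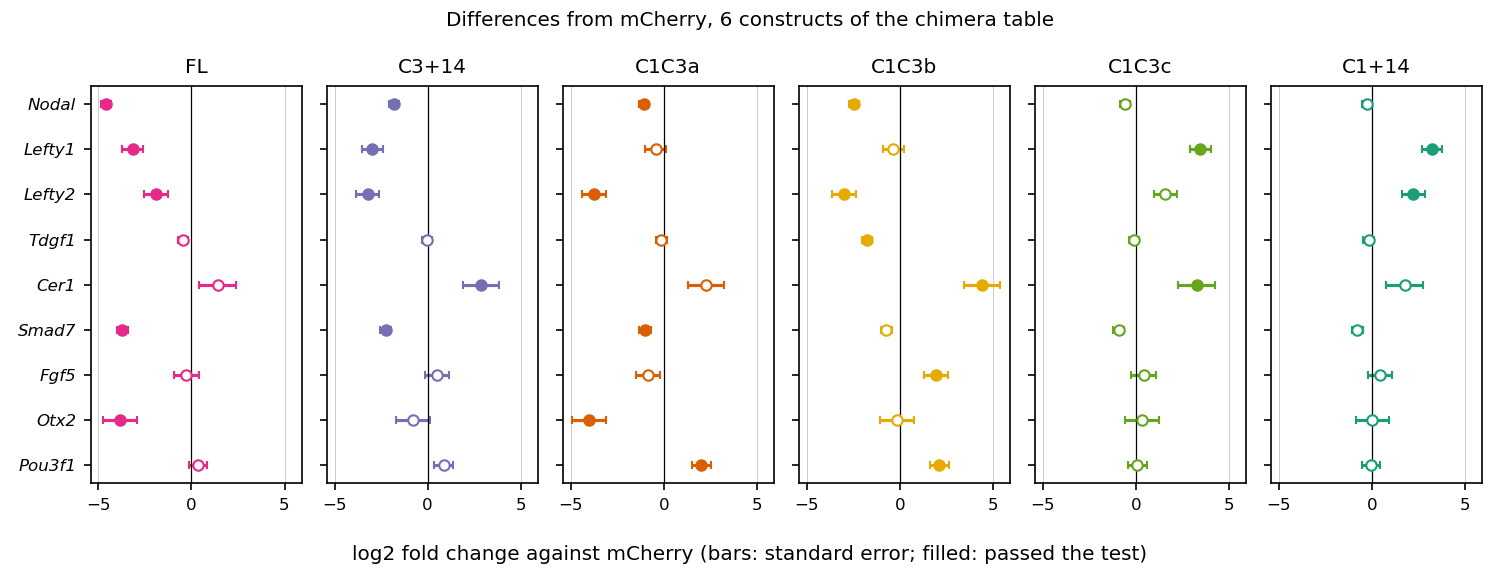
Log2 difference of each of the 9 genes from mCherry (horizontal axis, log2 of normalised reads + 1, bars showing the standard error from limma), with 1 panel per construct, 2 libraries a group, and filled marks for called genes. Differences that involve a group near 0 reads (Cer1 in mCherry, Otx2 and Fgf5 in C1C3a) depend on the added 1, as does Otx2 in FL, where 1 library had 0 reads. Nodal is called lower in 4 constructs and Lefty1 lower in 2 and higher in 2.

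The 3 priming markers did not move together. Otx2, a homeodomain factor of the early primed epiblast, measured 61.4 and 49.8 normalised reads in mCherry, 59.6 and 41.3 in C1C3b, 66.3 and 72.4 in C1C3c, 35.1 and 88.7 in C1+14, and 36.9 and 27.5 in C3+14. In C1C3a it had 2 reads in each library, and in FL 0 and 12 reads. The read ratio put Otx2 22.7-fold lower in C1C3a than in mCherry (95% interval from counting error alone 8.67 to 84.3). The limma fit of the same comparison gave adjusted p = 0.00168. In FL Otx2 fell as well (log2 difference -3.85, SE 0.90, adjusted p = 0.0023). That value rests on the library with 0 reads: it was -1.88 without FL replicate 1 and -5.81 without FL replicate 2, called both times, and with only the 2 groups compared the adjusted p was 0.106.

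Pou3f1, a POU factor, was higher in 2 constructs. It measured 35.6 and 29.2 normalised reads in mCherry, 177 and 102 in C1C3a, 118 and 176 in C1C3b, 50.3 and 69.6 in C3+14, and 23.6 and 72.6 in FL. C1C3c stood at 43 and 27.1, and C1+14 at 25.6 and 37.8, both overlapping the control. Pou3f1 rose by 2.13 in C1C3b (SE 0.49, adjusted p = 0.00225) and by 2.03 in C1C3a (SE 0.49, adjusted p = 0.00293), from 32.4 ± 4.57 to 147 ± 41.7 and 140 ± 53.2. Otx2 and Pou3f1 thus moved in opposite directions in C1C3a.

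Fgf5, a secreted growth factor that marks the primed epiblast, was barely expressed. It measured 7.92 and 5.15 normalised reads in mCherry (12 and 6 reads) and 30.7 and 24.4 in C1C3b (35 and 26 reads), and no other library of the table exceeded 19.7. It rose by 1.94 in C1C3b (SE 0.65, adjusted p = 0.0199), from 6.53 ± 1.96 to 27.6 ± 4.45. Leaving out either C1C3b library or mCherry replicate 2 lost the call (adjusted p = 0.052 to 0.117), as did quantile normalization (log2 difference 0.93, adjusted p = 0.232). No construct other than C1C3b had Fgf5 called against mCherry. The summed level of 6 fibroblast feeder markers, of which 5 were tested, was 161.4 to 161.5 normalised reads in C1C3b, 87.1 to 123 in C3+14 and 46.8 to 55.8 in mCherry, where Postn, Lum and Dcn had 0 reads. Of the 5, 4 rose and 1 fell in C1C3b (all genes 27.6% and 17.1%), and 3 rose and 1 fell in C3+14 (29.6% and 17.7%). Their part in the Fgf5 values was not tested.

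C1C3a and C1C3b were set against C1+14, a comparison within 1 kind of library, and both Lefty genes were lower in each. In C1C3a, 3 of the 9 members were lower and 1 higher (background 40.8%, with 23.4% higher and 17.3% lower). Lefty2 was lower (log2 difference -5.98, adjusted p = 3.65e-06), as was Lefty1 (-3.67, adjusted p = 9.97e-05). Otx2 was 25.8-fold lower by its read ratio (95% counting interval 9.91 to 95.6; adjusted p by limma = 0.0019), and Pou3f1 was higher by 2.08 (adjusted p = 0.00287). In C1C3b, 4 were lower and 2 higher (background 28.9%, with 17.9% higher and 11% lower). Lower were Lefty2 (-5.22, adjusted p = 3.16e-05), Lefty1 (-3.58, adjusted p = 0.000235), Nodal (-2.21, adjusted p = 2.64e-05) and Tdgf1, given above. Pou3f1 was higher by 2.17 (adjusted p = 0.00311). Cer1 was higher by 2.67 (adjusted p = 0.0404), a call lost without any 1 of 3 libraries (adjusted p = 0.123 to 0.27; the difference was 1.70 without C1+14 replicate 1 and 3.63 without C1+14 replicate 2). The Cer1 call was also lost with no filter (adjusted p = 0.0899), after quantile normalization (0.121), with edgeR (0.057), with DESeq2 (0.0942) and with only the groups compared (0.0765). Cer1 passed the filter on low values through both C1C3b libraries and neither C1+14 library, so this call leans on the filter. The share of called genes that were higher was 57.5% for C1C3a and 61.9% for C1C3b, and 39.1% and 47.3% after quantile normalization.

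Between C1C3c and C1+14, 0 of the 9 members were called by limma, against 7.83% of all genes (5.37% higher and 2.46% lower), and edgeR and DESeq2 also called 0 members. At an unadjusted p below 0.05, 0 members passed, against 6169 of the 21584 genes tested. This comparison shares the C1+14 libraries with those above, and a p that misses the threshold does not show that their levels were alike.

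C1C3b and C1C3a differed from each other at 4 members, 2 lower and 2 higher in C1C3b (background 35.6%, with 18.3% higher and 17.3% lower). Nodal was lower in C1C3b (log2 difference -1.39, adjusted p = 0.000634), and Tdgf1 was lower as given above. By read ratios Otx2 was 20.4-fold higher in C1C3b (95% counting interval 7.76 to 76.3) and Fgf5 8.90-fold higher (3.61 to 28.4). The limma fit gave adjusted p = 0.00281 for Otx2 and 0.00271 for Fgf5. Fgf5 passed the filter on low values through both C1C3b libraries and neither C1C3a library, so its call leans on the filter. The Lefty genes, Smad7, Cer1 and Pou3f1 were not called between them.

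Against FL, C3+14 was higher at 3 of the 9 members (background 26.3%, with 16.8% higher and 9.54% lower). Nodal was higher by 2.78 on the log2 scale (adjusted p = 4.31e-06), Smad7 by 1.47 (adjusted p = 0.00184) and Otx2 by 3.07 (adjusted p = 0.0152). Smad7 was not called without FL replicate 1 (log2 difference 0.85), nor was Otx2 without any 1 of 3 libraries (adjusted p = 0.0562 to 0.142, with a difference of 1.10 without FL replicate 1). Without FL replicate 2 the differences were 2.08 for Smad7 and 5.04 for Otx2. With only the groups compared neither was called (adjusted p = 0.0578 and 0.138). The FL and C3+14 libraries are of different kinds, so kind and construct cannot be told apart there.

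C1C3a, of the same kind as FL, differed from it at 5 members, 4 higher and 1 lower (background 15.6%, with 11% higher and 4.62% lower). Nodal was higher by 3.52 (adjusted p = 2.63e-06), Lefty1 by 2.72 (adjusted p = 0.00347), Smad7 by 2.71 (adjusted p = 4.39e-05) and Pou3f1 by 1.67 (adjusted p = 0.0257). Lefty2 was lower (log2 difference -1.84, adjusted p = 0.0483), with the 2 groups' libraries overlapping. The calls of Pou3f1 and Lefty2 were lost without any 1 of 2 and any 1 of 3 libraries (adjusted p = 0.181 to 0.228 and 0.0571 to 0.481). Without FL replicate 1 the differences were 0.88 for Pou3f1, -0.50 for Lefty2, 3.61 for Lefty1 and 2.09 for Smad7, and without FL replicate 2 they were 2.46, -3.18, 1.83 and 3.32. With only the groups compared, Lefty1 (adjusted p = 0.125), Smad7 (0.056), Pou3f1 (0.208) and Lefty2 (0.341) were all no longer called. Of the genes called, 70.4% were higher in C1C3a, and 58.6% after quantile normalization.

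The deletion table asks how the members depend on the parts of DUX named C12345 and 14. Nodal, Lefty1, Lefty2, Smad7 and Otx2 were called higher in both constructs labelled deltC12345 than in FL, though the Lefty2 calls were lost in several alternatives. Nodal measured 52.6 and 104 normalised reads in FL, 309 and 612 in C12345delt14, 1249 and 1697 in deltC12345+14, and 1446 and 1538 in deltC12345delt14. The 3 levels did not overlap, and the constructs labelled deltC12345 overlapped each other. Against FL, Nodal rose by 4.28 on the log2 scale in deltC12345+14 (adjusted p = 0.000147) and by 4.31 in deltC12345delt14 (adjusted p = 0.000132). In C12345delt14 it rose by 2.54 (SE 0.40, adjusted p = 0.045), from 78.4 ± 36.5 to 460 ± 214, the only member called there against a background of 0.958% (0.338% higher and 0.62% lower). That call was lost without any 1 of 3 libraries (log2 differences of 2.04 to 3.03) and with no filter (adjusted p = 0.0682). The median log2 difference of C12345delt14 from FL over the 7 tested members was 2.02, beside -0.04 over all genes. At an unadjusted limma p below 0.05, 5 of the 7 passed, as did 4935 of the 19833 genes tested. These comparisons share the FL libraries.

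**Figure D4:**
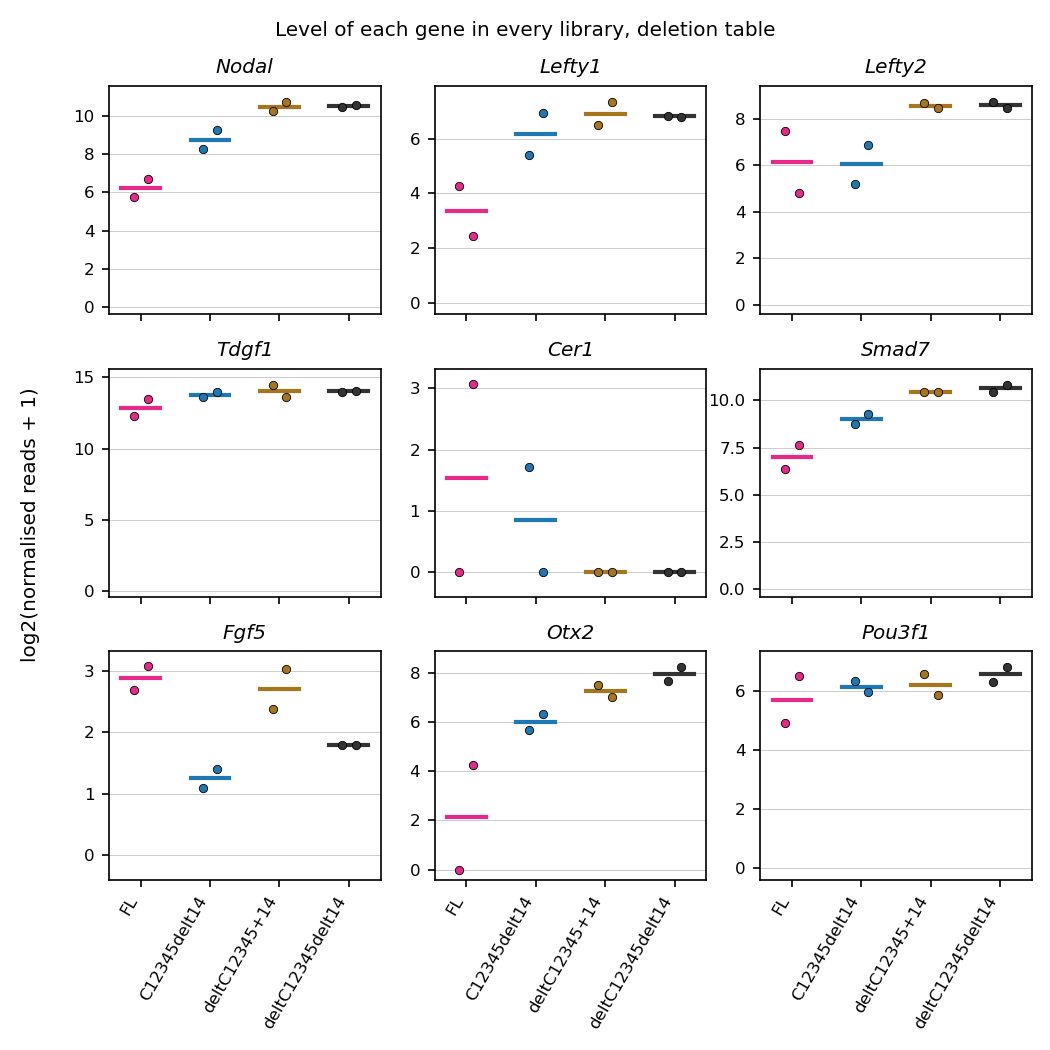
Level of each of the 9 genes in the 8 libraries of the deletion table, as log2(normalised reads + 1) on the vertical axis with the construct on the horizontal axis. Points are libraries and bars are group means (n = 2). Nodal, Smad7 and Otx2 stand lowest in FL and highest in the constructs labelled deltC12345, with C12345delt14 between.

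Smad7 followed the same order. It measured 81.5 and 197 normalised reads in FL, 433 and 616 in C12345delt14, 1384 and 1378 in deltC12345+14, and 1401 and 1792 in deltC12345delt14. It rose against FL by 3.44 in deltC12345+14 (adjusted p = 0.000371) and by 3.63 in deltC12345delt14 (adjusted p = 0.000255). Otx2 measured 0 and 17.9 in FL, 50.3 and 77.9 in C12345delt14, 182 and 129 in deltC12345+14, and 200 and 296 in deltC12345delt14. It rose by 5.15 (adjusted p = 0.00706) and by 5.81 (adjusted p = 0.00404) in these last 2 constructs. Both Otx2 values rest on the FL library with 0 reads: without it they were 3.03 and 3.70, and without the other FL library 7.27 and 7.93, called each time. The Smad7 rises were 2.81 and 3.005 without FL replicate 1 and 4.07 and 4.26 without FL replicate 2, also called.

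Lefty1 measured 18.1 and 4.47 normalised reads in FL, 41.2 and 121 in C12345delt14, 88.4 and 159 in deltC12345+14, and 112 and 110 in deltC12345delt14. It rose by 3.55 in deltC12345+14 (adjusted p = 0.00457) and by 3.45 in deltC12345delt14 (adjusted p = 0.00498). Without FL replicate 1 these Lefty1 rises were 4.45 and 4.36, and without FL replicate 2 they were 2.65 and 2.55, called each time. Lefty2 measured 176 and 26.8 in FL, 35.4 and 116 in C12345delt14, 403 and 351 in deltC12345+14, and 415 and 351 in deltC12345delt14. Its rises of 2.43 (adjusted p = 0.0393) and 2.45 (adjusted p = 0.0378) were lost in each case without any 1 of 3 libraries (adjusted p = 0.103 to 0.208 and 0.0821 to 0.2). Without FL replicate 2 they dropped to 1.09 and 1.11, and without FL replicate 1 they were 3.76 and 3.78. They were also lost when the libraries of the lower repeated-gene share were left out (log2 differences 2.53 and 2.33). The same calls were lost with DESeq2 (adjusted p = 0.0996 and 0.0958) and with no filter (0.0669 and 0.0654). The replicate block (0.0533 and 0.0517) and only the groups compared (0.0783 and 0.0795) lost them too.

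Tdgf1 measured 4875 and 11315 in FL, 12434 and 16104 in C12345delt14, 22402 and 12650 in deltC12345+14, and 16350 and 16653 in deltC12345delt14. Its rises over FL of 1.18 (adjusted p = 0.0374) and 1.15 (adjusted p = 0.0404) were likewise lost without single libraries (adjusted p = 0.187 to 0.234 and 0.102 to 0.254). Without FL replicate 1 the Tdgf1 rises were 0.57 and 0.54, and without FL replicate 2 they were 1.79 and 1.76. The second was also lost without the libraries of lower share (log2 difference 1.16) and with the replicate block (adjusted p = 0.0536). Both Tdgf1 calls were lost with no filter (adjusted p = 0.0645 and 0.0699) and with only the groups compared (0.100 and 0.0730). In all, 6 of 7 tested members rose in deltC12345+14 (background 38.4%, with 18.4% higher and 20% lower) and 6 of 7 in deltC12345delt14 (39.1%, with 18.8% higher and 20.3% lower). The member medians were 3.44 and 3.45, beside -0.08 and -0.11 over all genes. Of all called genes, 47.9% and 48.1% were higher, and 63.6% and 63.3% after quantile normalization. For C12345delt14 the share was 35.3%, and 47.2% after it. Pou3f1 measured 29 to 112 in the 8 libraries and was not called. Cer1 and Fgf5 stayed below the filter, at 7.44 normalised reads or less in every library, and the F test over the 4 groups called 5 of the 7 tested members (all genes 49.6%), not Tdgf1 or Pou3f1.

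Between the last 2 constructs, which differ in the part labelled 14, 0 of 7 members and 0% of all genes were called by limma. At an unadjusted p below 0.05, 0 members and 543 genes passed, edgeR called 0 genes and DESeq2 called 2, none of them a member. Each of these 2 constructs held 1 library of each kind by repeated-gene share, so that difference lies within both groups. The chi-square per gene between the libraries was 73.0 in deltC12345+14 and 71.8 in deltC12345delt14. A p that misses the threshold does not show that the levels were alike. Set against deltC12345delt14, C12345delt14 had 3 of 7 members lower, against 22% of all genes called (12.6% higher and 9.4% lower). They were Nodal (log2 difference -1.78, adjusted p = 0.0141), Smad7 (-1.62, adjusted p = 0.017) and Lefty2 (-2.55, adjusted p = 0.0495). Each of these calls was lost without single libraries, at adjusted p = 0.0518 to 0.116 for Nodal, 0.0747 to 0.144 for Smad7 and 0.0557 to 0.314 for Lefty2, whose difference was -1.70 or -3.39 with 1 C12345delt14 library left out. The Lefty2 call was also lost with no filter (adjusted p = 0.0892), after quantile normalization (0.0593), with DESeq2 (0.0543) and with the replicate block (0.0663). Leaving out the libraries of lower share lost it too (log2 difference -2.43). Of all genes called in this comparison, 57.3% were higher in C12345delt14, and 39.2% after quantile normalization. The summed 2-cell genes stood at 336534 to 535981 normalised reads in C12345delt14, 0 in deltC12345+14 and 0 to 3.28 in deltC12345delt14.

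The other genes of the pathway were counted from lists. Over all genes tested against mCherry, 24.5% were called higher and 19.6% lower in FL, and 29.6% and 17.7% in C3+14. These shares were 27.4% and 19% in C1C3a, 27.6% and 17.1% in C1C3b, 18.3% and 10.5% in C1C3c, and 12.4% and 5.95% in C1+14. Several of the list counts below lie near them, so the counts alone do not set a list apart. Of 12 tested genes of the receptor and SMAD machinery, 3 rose and 3 fell in C1C3b against mCherry, 3 rose and 2 fell in C1C3c, 1 rose and 5 fell in C3+14, and 3 fell in each of FL and C1C3a. In C1+14, 0 were called by limma, and 5 had an unadjusted p below 0.05, as had 8962 of the 21584 genes tested. The list's median log2 difference ranged from -0.71 in C3+14 to 0.01 in C1+14, beside 0 to 0.23 over all genes. Smad3, a receptor-activated SMAD, stood at 596 normalised reads in mCherry and fell most in C1C3a, to 50.9 (log2 difference -3.53). It fell least in FL, to 163 (-1.86, adjusted p = 0.000231), with C1C3c at 94.0 (-2.77), C1C3b at 68.6 (-3.10) and C3+14 at 59.3 (-3.31) between them. Acvr1b, a type I activin receptor, fell in the same constructs other than C1C3c, with log2 differences of -1.09 in C1C3b, -1.70 in C1C3a, -1.83 in C3+14 and -2.01 in FL. Acvr2a, a type II receptor, rose in C1C3b from 233 to 1087 (log2 2.22), in C3+14 by 1.67 and in C1C3c by 1.33. Smad4, the shared SMAD partner, rose by 1.51 in C1C3b and 1.16 in C1C3c.

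Among 10 tested feedback and repressor genes, 2 fell in C1C3a, 4 in C3+14 and 6 in FL. In C1C3b 2 rose and 2 fell, and 1 rose in each of C1C3c and C1+14, with list medians from -1.13 in FL to -0.01 in C1+14. That gene was Skil, a SMAD repressor induced by the pathway, which measured 746 in mCherry and rose by 1.77 in C1C3c, 1.03 in C1+14 and 1.16 in C1C3b. In the first 2 of these Lefty1 rose as well, and Smad7 was not called in either. In C1C3b Lefty1 and Smad7 were not called and Lefty2 fell. Tgif1, a repressor of SMAD targets, fell in FL from 2962 to 409 (log2 difference -2.92). Of 8 tested primitive streak genes that include known Nodal targets, 4 rose and 1 fell in C1C3b, 3 rose in C1C3c, 2 in C1+14, 2 in C3+14 and 1 in C1C3a, and 1 fell in FL (Gsc), with list medians from -1.19 in FL to 1.34 in C1C3b. Foxa2, an endoderm and streak factor, stood at 4.35 normalised reads in mCherry and rose to 183 in C3+14, 153 in C1C3a and 79.7 in C1C3b.

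**Figure D5:**
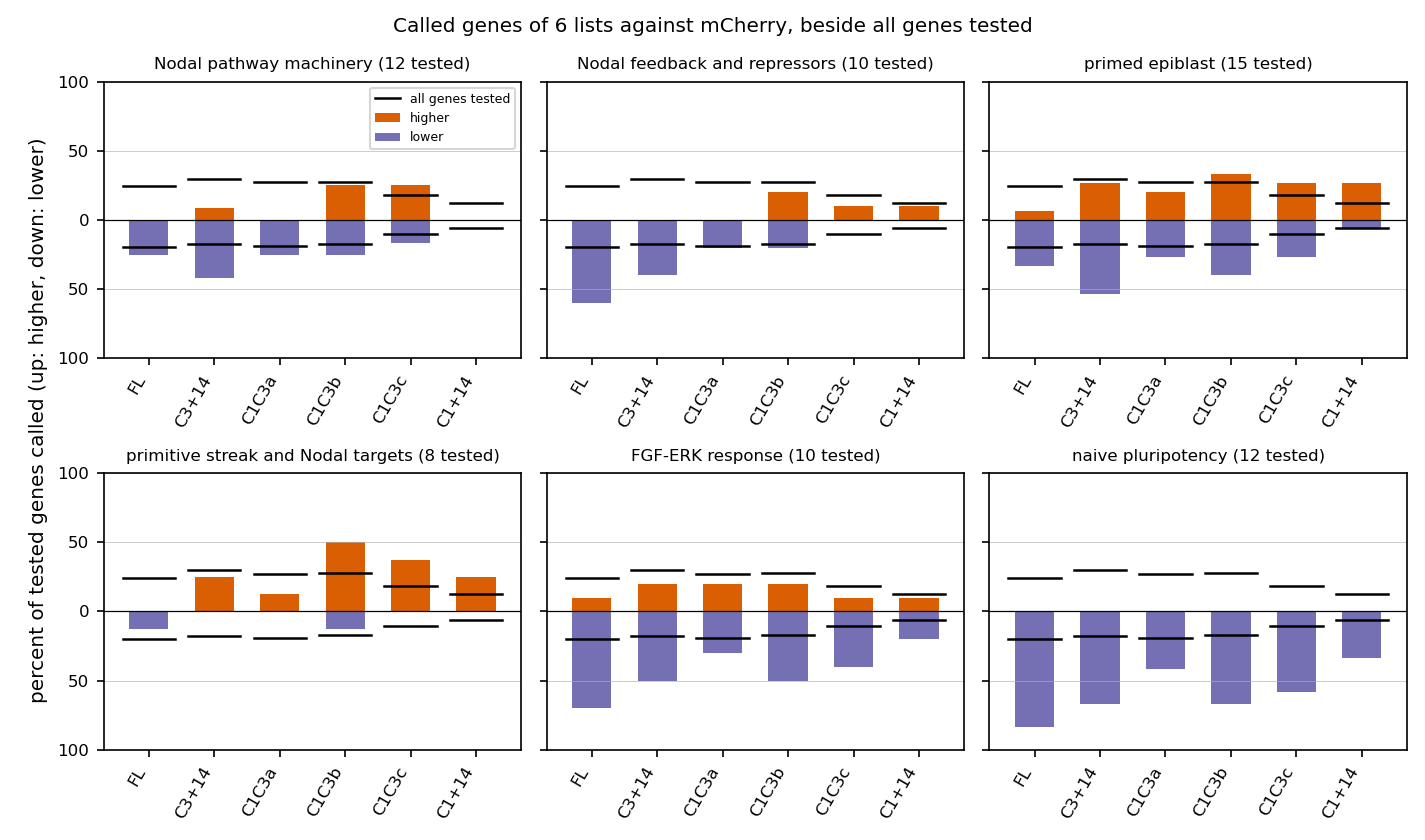
Percent of the tested genes of each of 6 lists called higher (bars up) or lower (bars down) than mCherry, for 6 constructs, with black lines for the same shares over all genes tested. Of the naive pluripotency genes 10 of 12 were lower in FL and none was higher in any of the 6 constructs.

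Priming genes went both ways within a construct, as did all genes tested, at the shares given above. Of 15 tested genes of the primed epiblast, 5 rose and 6 fell in C1C3b, 4 rose and 8 fell in C3+14, 4 rose and 4 fell in C1C3c, 4 rose and 1 fell in C1+14, 3 rose and 4 fell in C1C3a, and 1 rose and 5 fell in FL. The list medians ranged from -1.12 in C3+14 to -0.07 in C1+14. Sox3, a neural and epiblast SOX factor, stood at 35.3 in mCherry and rose in all 6 constructs, least in C1+14, to 164 (log2 difference 2.19), and most in C1C3a, to 976 (4.75). Foxd3, a forkhead factor of the exit from naive pluripotency, fell in all 6, from 569 to between 50.8 in FL and 143 in C1C3b. Of 12 naive pluripotency genes 4 fell in C1+14, 5 in C1C3a, 7 in C1C3c, 8 in each of C1C3b and C3+14, and 10 in FL, with no rise called in these 6 comparisons and list medians from -2.51 in C1C3b to -0.78 in C1+14. Prdm14, a naive regulator that restrains FGF signalling, fell from 2239 to 59.8 in C1C3b (log2 -5.23) and to 355 in C1+14 (log2 -2.66).

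FGF-ERK signalling drives the exit from the naive state and is held down in this medium by a MEK inhibitor. Of 10 tested response genes, 2 rose and 5 fell in each of C1C3b and C3+14, 2 rose and 3 fell in C1C3a, 1 rose and 7 fell in FL, 1 rose and 4 fell in C1C3c, and 1 rose and 2 fell in C1+14, with list medians from -2.29 in FL to -0.35 in C1+14. Fgf4, the ligand, fell in all 6 constructs, from 3884 normalised reads to between 29.8 in C1C3b (log2 -7.05) and 1176 in C1+14 (log2 -1.74). Dusp4, a phosphatase induced by ERK, stood at 18.3 and rose in 5 constructs, from 67.2 in C1+14 up to 250.2 in C1C3a. In the deletion table, 9 of the 12 naive genes rose in deltC12345+14 against FL (all genes 18.4%), and 9 rose and 1, Nr0b1, fell in deltC12345delt14 (18.8% and 20.3%). Fgf4 rose from 188 to 5151 in deltC12345delt14 (log2 5.25, adjusted p = 0.00121).

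Likeness of pattern was measured over the 14 chimera libraries, as the root mean square difference of centred log2 levels from each of 13512 other genes. Nodal lay nearest to Pim1 (0.47) and Fzd10 (0.50), and Smad7 to Fitm2 and Phf13 (0.32 each). Lefty1 had no close partner, with Il17rd at 1.16 and Slco5a1 at 1.45, and Lefty2 was nearest to Slco5a1 and Lpar2 (1.11 each). Tdgf1 was nearest to its own copy Tdgf1-ps1 (0.11), with which it shares sequence. Cer1 was nearest to Ubash3b (0.63), Otx2 to Ackr3 (0.77), Pou3f1 to Cx3cl1 (0.52) and Fgf5 to Slc5a3 (0.44). These distances describe libraries that share a construct, and low-count genes carry counting noise in them.

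RefSeq promoter windows of 300 bases (GRCm38.p6) matched 5 of the 9 members: Nodal, Tdgf1, Cer1, Fgf5 and Otx2. On both strands, none of the 5 held the FOXH1 motif TGTGGATT or the SMAD motif GTCTAGAC, which occurred in 0.855% and 0.213% of 32851 promoters. No match says only that these letters are not in these windows.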

How the data were processed

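Total RNA (TRIZOL, 500 ng) was made into stranded poly(A) libraries, per the labels' protocols. The values deposited by the authors are a per-gene signal, read counts divided by 1 size factor per library, in 2 tables scaled on their own. The submitters' processing notes name mm10, Trim Galore 0.5.0, FastQC and DESeq2, and the aligner, counter and annotation are not given in the sources used here. Whole reads were recovered from the steps of the values: 574693 positive values, 100% of them whole within a relative tolerance of 0.001. Libraries held 21059953 to 40448890 reads, and 1 read was worth 0.620 to 1.81 normalised reads. Intervals and floors cover counting error only. FL is in both tables, with reads that differ at 0 genes. Of 55487 gene IDs, 99.4% matched a GENCODE M21 symbol.

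Genes with at least 10 normalised reads in 2 libraries were tested, 21584 in the chimera and 19833 in the deletion table. limma 3.58.1 (R 4.3.3) was fitted on log2(value + 1) with all groups of a table, a mean-variance trend and Benjamini-Hochberg adjustment over all genes tested. For low genes, differences on this scale depart from ratios of group means: the added 1 shrinks them, and a single library at 0 reads, as for Otx2 in FL, enlarges them. Calls needed an adjusted p below 0.05 and an absolute log2 difference of 1. A group at 0 was set at 3 reads per library, and genes with 1 to 3 reads were given read ratios with exact intervals. The adjusted p-values given with these folds are those of the limma fit on log2(value + 1). The recovered reads were also tested with edgeR 4.0.16 and DESeq2 1.42.0. Other alternatives were a pseudocount of 8, no filter, quantile normalization, a replicate block, only the groups compared, and leaving out each library in turn, where a lone library is assumed to vary like the other groups. The limma step was tested on simulated reads for FL against mCherry in the chimera table. That simulation gave all groups the same spread, which these libraries do not have. The 9 members and the gene lists were chosen with earlier results of these data known. Beside the members, up to 3 called genes higher and 3 lower per list and comparison could be named, by largest change, provided the higher group averaged 50 or more.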

Additional observations from a re-analysis of the deposited data

Results flagged for a closer look

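Lefty1 and Lefty2 were higher than mCherry in some constructs and lower in others, and the difference between such constructs was taken from the same limma fit. Each pair was picked because the gene was called higher than mCherry in 1 construct and lower in the other. The sign and size of the difference therefore follow from those calls, and the contrasts describe them without adding support. The contrasts of C1+14 with C1C3a and C1C3b were among the planned comparisons above, and the other 6 were chosen after seeing the data. On the log2 scale, Lefty1 in C1C3c exceeded that in FL by 6.61 and that in C3+14 by 6.42, each with an SE of 0.56. Lefty1 in C1+14 exceeded that in FL by 6.39 and that in C3+14 by 6.19. Lefty2 in C1+14 exceeded that in FL by 4.14, in C3+14 by 5.44, in C1C3a by 5.98 and in C1C3b by 5.22 (SE 0.63). In each of these 8 contrasts both libraries of the first construct lay above both of the second. The C1C3c, C1+14, C1C3a, C1C3b and FL libraries are of 1 kind by their share of reads in repeated genes, and C3+14 is of the other.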

How the results depend on the processing

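Of 143 member differences tested, 63 were called. Of these, 62 stayed called with a pseudocount of 8, 55 with no filter, 59 after quantile normalization, 62 with edgeR and 57 with DESeq2 on the recovered reads, 50 with only the groups compared and 43 when each library was left out in turn. In all, 40 stayed called under every alternative run, and 0 changed sign. Leaving out the libraries of lower repeated-gene share in the deletion table, chosen after seeing the data, kept 11 of 15. The 80 uncalled differences gave 893 refits, of which 73 changed sign and 39 passed the threshold, so their directions are not reported. The 1 refit that did both was Otx2 in C1C3a against FL without FL replicate 2.

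With only the groups compared, the members called were 3 for FL against mCherry (5 in the full fit), 1 for C3+14 against FL (3) and 1 for C1C3a against FL (5). For C12345delt14 against FL, 1 member was called, against 3 with a pseudocount of 8, 0 with no filter, 2 after quantile normalization, 2 with edgeR, 4 with DESeq2 and 2 with only the groups compared. Leaving out single libraries gave 1 to 6 for C3+14 against FL, 3 to 6 for C1C3a against FL, 1 to 2 for C1C3c against mCherry, 1 for C1+14 against mCherry, 0 to 3 for C12345delt14 against FL and 0 to 2 for C12345delt14 against deltC12345delt14. The cause was not tested.

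Replicate numbers did not pair the libraries in the chimera table, where the correlation of replicate differences was -0.101 to 0.050 over 21 pairs of constructs. In the deletion table it was -0.574 to 0.135 over 6 pairs, with a median of -0.027. There the 2 constructs labelled deltC12345 hold the 2 kinds of library in opposite replicate order, which the replicate block does not take up. The part of kind in the lowest correlation was not tested. With the replicate block, 59 of the 63 stayed called, and the members called for deltC12345+14 against FL, deltC12345delt14 against FL and C12345delt14 against deltC12345delt14 were 5, 4 and 2 in place of 6, 6 and 3. The other counts of called members did not move, apart from the F test of the deletion table, with 4 in place of 5. With 2 libraries a group and few reads of Cer1, Fgf5, Otx2 and Lefty1 in several libraries, depth limits what can be said of these low genes.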
